A study of Mus musculus with 5 samples.

Results

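The expression of 38 genes that build and run the DNA replication fork was examined in LLC, a mouse Lewis lung carcinoma line. The genes were taken by name as known parts of the replication machinery, and all 38 were found among the 13979 gene symbols that 3 tables of the series share. There were 5 groups with 1 library each. Control was the study's control group, BMN received the PARP inhibitor alone, and PAZA received a polymer nanocarrier that carries 5-azacytidine, an inhibitor of DNA methyltransferases. The other groups received BMN loaded in PAZA at a low or a high dose, called here low-dose and high-dose BMN/PAZA. The study's methods describe tumors grown from LLC cells in mice and collected the day after the last treatment. The sample labels instead name cultured LLC cells treated for 72 h, and they list lung as the tissue, so the 2 sources disagree on what was sequenced. No replicate exists in any group, so every difference below compares 1 library with another, has no test and no replicate check, and does not separate a treatment from the tumor or culture it was given to.

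DNA replication begins when the origin recognition complex, CDC6 and CDT1 load the ring-shaped MCM2 to MCM7 helicase onto origins in G1. In S phase, CDC45 and the GINS complex join the ring and turn it into a moving helicase. Primase and polymerase alpha start each new strand, polymerases delta and epsilon extend it, RFC loads the sliding clamp PCNA that holds the polymerases, and RPA coats the exposed single strands. PARP inhibitors trap PARP on DNA, which moving forks then meet, and 5-azacytidine is incorporated into nucleic acids and traps DNA methyltransferases. Transcripts of these genes are most abundant in cycling cells, and in bulk samples fewer cycling cells and less RNA per cell cannot be told apart.

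No unit stands in the deposited tables, whose values were taken to be FPKM, which scale fragments by gene length and library size. Each library was scaled so that the shared symbols sum to 1000000, and these scaled FPKM are the levels given below. Differences are given as log2 ratios of (scaled FPKM + 1), which understates the change of weakly expressed genes. The reference for every count was the set of 11214 genes with a mean of at least 1 scaled FPKM over the 5 libraries, which includes all 38 replication genes. A gene was called higher or lower where the log2 ratio reached 1.5-fold. Without read counts, sequencing depth and counting error are unknown. The median log2 ratio to Control over all genes was −0.10 in PAZA, 0.09 in BMN, −0.08 in low-dose BMN/PAZA and −0.22 in high-dose BMN/PAZA.

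The libraries differed in the transcripts of other cell types. The summed level of 7 skeletal muscle genes was 15.1 in Control, 15.8 at low dose, 61.0 in PAZA, 196 in BMN and 229.6 at high dose. The summed level of the 5 epidermal genes found was 287 in BMN, 69.7 in Control and 2.99 to 13.0 in the libraries with PAZA. The sum of 7 fibroblast genes was 819 in BMN and 314 to 535 elsewhere. Leukocyte genes ranged from 188 to 283, macrophage genes from 335 to 480.1, neutrophil genes from 68.6 to 236, T and NK cell genes from 5.22 to 18.9, endothelial genes from 36.3 to 62.5 and adipocyte genes from 44.2 to 114. Of 6 lung epithelial genes only EPCAM was among the shared symbols, at 0 in PAZA and at most 3.30 elsewhere. CKM, KRT5 and KRT1 were at 0 at low dose, FLG at 0 in PAZA, and CD3D at 0 in Control and at low dose. CD3E and TRBC1 were at 0 at high dose, where the T and NK cell sum was lowest, RETNLG in Control and BMN, ADIPOQ in Control and at low dose, and LEP in Control, BMN and at high dose. The part of these transcripts in the replication gene results was not tested.

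A pattern in the BMN column has to be stated before the levels. For 12 of the 38 replication genes the deposited BMN value was 2 times the low-dose value of the table that pairs PAZA with low-dose BMN/PAZA, after a constant of 1.05 between the tables. The 12 ratios lay between 1.9999 and 2.0001. The 12 genes were PCNA, RFC2, RFC3, RFC4, RFC5, RPA2, RPA3, POLA1, POLA2, PRIM1, POLD1 and TYMS. Among all genes tested, 141 had a BMN value at this multiple within 0.2%, a share of 1.26%. The other 26 replication genes had ratios from 0.701 to 2.91, and the nearest to the multiple were GINS2 at 1.75 and CHAF1A at 2.48.

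The multiple fell on some roles more than others. It took in 5 of the 6 clamp and clamp loader genes, 4 of the 8 primase and polymerase genes, 2 of the 3 RPA genes and TYMS. It took in none of the 4 origin licensing genes, the 6 helicase subunits, the 6 helicase activation genes, the CHAF1 pair or the CLSPN and TIPIN pair.

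The same 12 genes differed between tables in other columns as well. In the table that pairs BMN with low-dose BMN/PAZA, their low-dose value was 0.684 to 2.07 times the value given by the constant, whereas the 26 other genes were all within 0.5% of it. The low-dose values of the 12 in that table had at most 6 significant digits in 5 cases as deposited and in 12 of 12 after division by 1.5. Their PAZA value in the table with Control was 1.08 times the value given by the constant to the table with low-dose BMN/PAZA, in which it has 10 digits. The PAZA levels given here are those of the table with Control. Low-dose values of all 38 genes were within 0.5% of the constant between the tables with PAZA and with high-dose BMN/PAZA, and BMN and high-dose values were identical in their tables. The cause was not tested. The ratio of BMN to low dose is therefore the same for the 12 genes, 2.25 on the scaled levels, and their BMN comparisons are given as deposited with no weight put on them. The comparisons of the 26 other genes were free of this pattern.

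**Figure D1:**
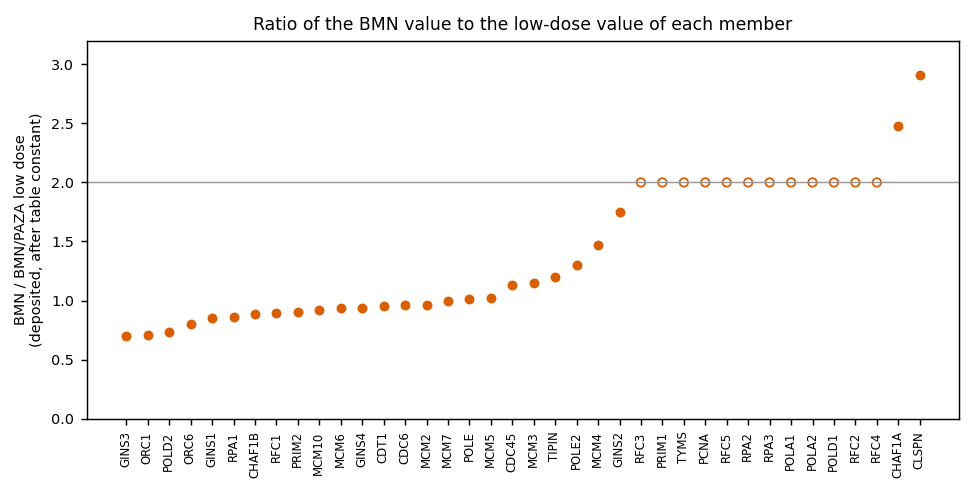
Ratio of the deposited BMN value to the low-dose BMN/PAZA value after the constant between tables (vertical axis, no unit) for each of the 38 replication genes, in rising order on the horizontal axis; open circles are the 12 genes at the line drawn at 2, filled circles the 26 others. The open circles lie on the line, between GINS2 at 1.75 and CHAF1A at 2.48.

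Among the 4 libraries other than BMN, the highest was at least 1.5 times the lowest for 9 of the 38 replication genes, against 62.5% of all genes tested. With BMN included this held for 18 of the 38, against 74.4% of all genes. The 12 genes with the multiple are all among the 18 by construction, since their BMN level is 2.25 times the low-dose level. The other 6 are described by their range, with no comparison to all genes. These were CLSPN with a ratio of 3.55, GINS2 with 3.09, CHAF1A with 2.78, MCM7 with 1.77, POLE with 1.73 and MCM4 with 1.70. The replication genes and all genes were not matched on level for the shares.

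**Figure D2:**
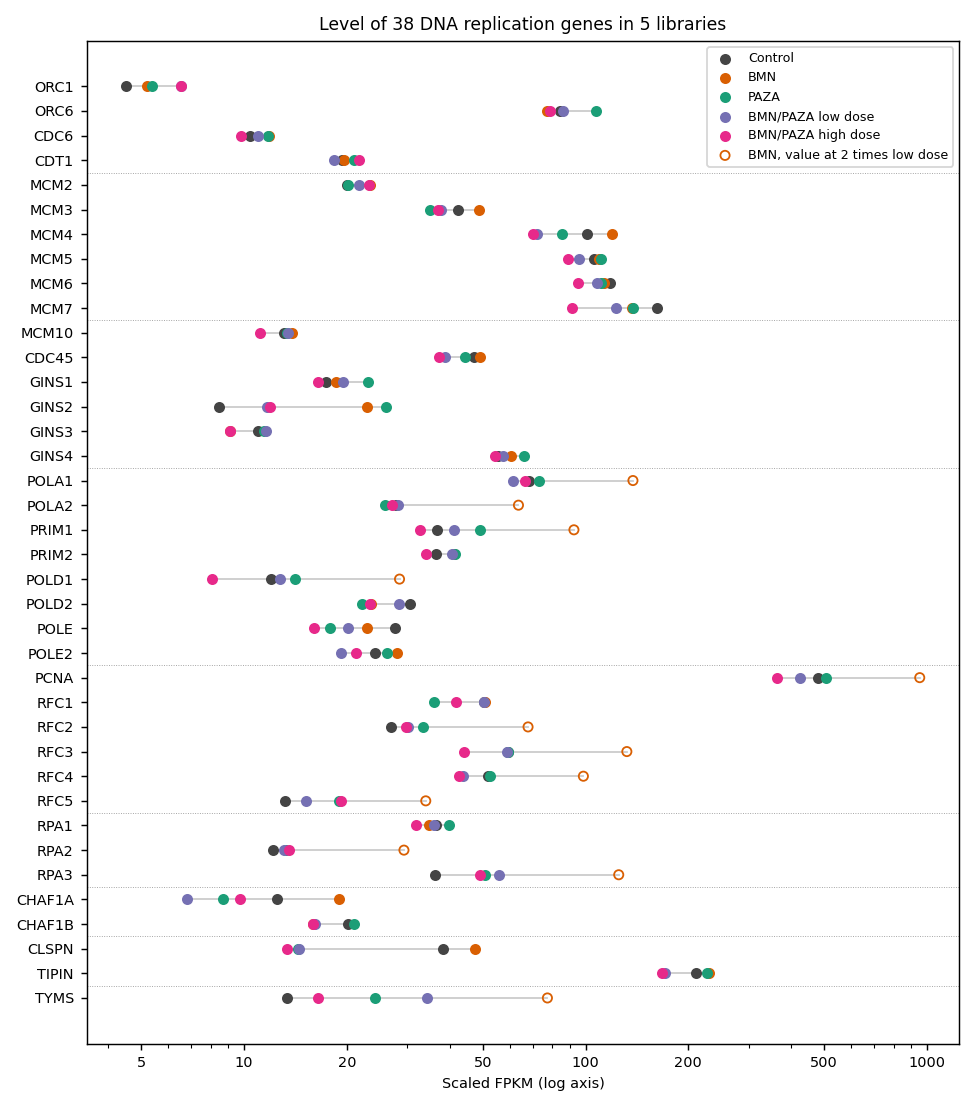
Level in scaled FPKM (horizontal log axis) of the 38 replication genes (rows, in blocks by role) in the 5 libraries, 1 point per library; open circles are BMN values at 2 times the low-dose value. CLSPN falls into a pair near 38.4 and 47.4 and a group of 3 libraries at 13.4 to 14.5, and the points of most MCM and ORC genes lie close together.

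CLSPN set the libraries with PAZA apart most. CLSPN encodes Claspin, the adaptor that lets ATR activate the checkpoint kinase CHK1 at stalled forks and that keeps fork speed up, and lies on chromosome 4 of GRCm38 from 126556935 to 126593903 on the plus strand. Its level was 38.4 in Control, 47.4 in BMN, 14.3 in PAZA, 14.5 at low dose and 13.4 at high dose. The libraries with PAZA did not overlap the other two, and the lower of Control and BMN was 2.64 times the highest of the 3. The log2 ratio to Control was −1.36 in PAZA, −1.34 at low dose and −1.46 at high dose, and 0.30 in BMN. Against BMN the log2 ratio was −1.64 at low dose and −1.75 at high dose. Under both other scalings of the libraries the log2 ratio of CLSPN to Control stayed between −1.31 and −1.23 in the 3 libraries with PAZA.

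CHAF1A had the same order in part. It encodes the large subunit of chromatin assembly factor 1, which deposits new histones behind the fork in contact with PCNA, and lies on chromosome 17 from 56040439 to 56072289. Its level was 12.5 in Control, 18.9 in BMN, 8.66 in PAZA, 6.81 at low dose and 9.75 at high dose. The 3 libraries with PAZA were below the other two, with a smaller gap than for CLSPN, since Control was 1.28 times the highest of the 3. The log2 ratio of CHAF1A to Control was −0.79 at low dose, −0.48 in PAZA and −0.33 at high dose, of which the low-dose value passed 1.5-fold. CHAF1B, the middle subunit of the same complex, was at 20.2 in Control, 21.0 in PAZA and 15.9 to 16.1 in the 3 libraries that received BMN. TIPIN, which holds the fork protection complex to the helicase, was at 211 in Control, 230.2 in BMN and 227 in PAZA, and lower at 171 and 167 at low and high dose.

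The order with all 3 libraries with PAZA below both Control and BMN was found for 8 of the 26 genes, where 30.8% of all genes showed it. These were MCM3, MCM4, MCM6, CDC45, RFC1, POLE, CHAF1A and CLSPN. The opposite order, all 3 above both, was found for ORC1 alone, against 7.83% of all genes. Over all 38 replication genes the lower order was found for 9, with RFC3 added. The genes with the multiple were set aside on BMN and low-dose values, which both orders also use, and all genes keep theirs. No result is therefore drawn from setting the 26 genes beside the shares of all genes, under any scaling. Under median-of-ratios scaling the lower order remained for MCM4, CHAF1A and CLSPN, with 17.7% of all genes, and the opposite order was found for 10 of the 26 genes with 17.4% of all genes. With the 100 most abundant genes left out of the scaling, the lower order was found for MCM4, POLE, CHAF1A and CLSPN, with 17.3% of all genes, and the opposite order for 9 of the 26 genes with 16.3% of all genes. MCM3, MCM6, CDC45 and RFC1 had it under the main scaling only, with gaps between the groups of at most 1.12 times.

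**Figure D3:**
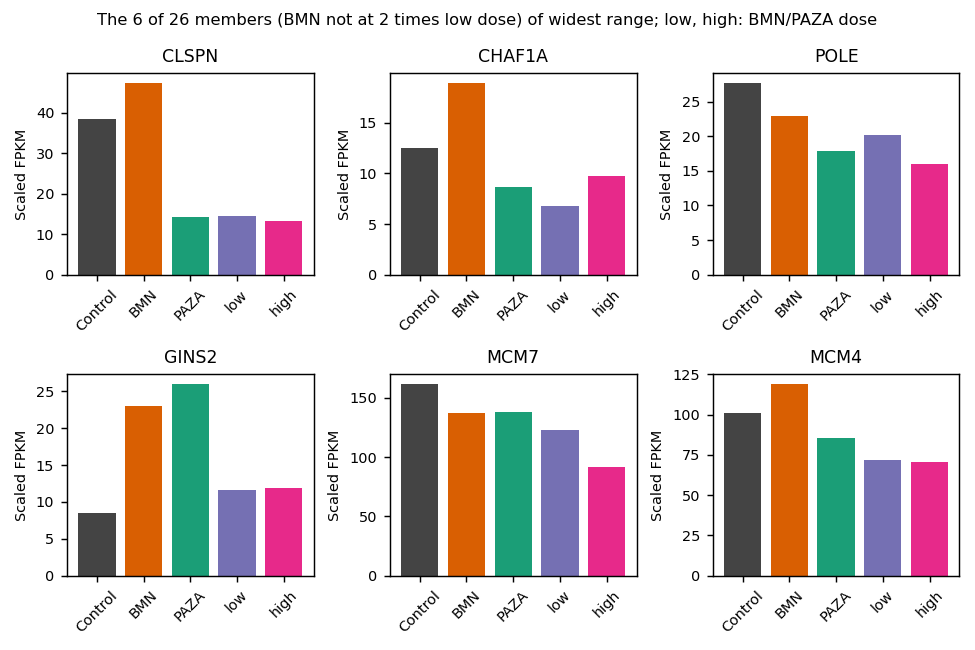
Level in scaled FPKM (vertical axes, from 0) of the 6 genes of widest range among the 26, 1 bar per library and no error bars because each group has 1 library; low and high are the BMN/PAZA doses. The bars of CLSPN, CHAF1A and MCM4 are lower in the 3 libraries with PAZA, those of GINS2 are highest in PAZA and BMN, and MCM7 and POLE are lowest at high dose.

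The 3 sequences that follow are the RefSeq promoter windows of CLSPN and CHAF1A, which were below Control and BMN in the libraries with PAZA, and of MCM6, whose window holds the most E2F words. E2F factors switch on replication genes at the G1/S transition. Each window runs on GRCm38.p6 from 250 bases before a RefSeq transcription start to 50 after it, which can differ from the gene bounds of the annotation given above, 5′ to 3′ on the gene's strand, and capitals mark the E2F words TTTCCCGC, TTTCGCGC, TTTGCCGC and TTTGGCGC on either strand. They lie at chr4:126556730-126557029 on the plus strand for CLSPN, chr17:56040166-56040465 on the plus strand for CHAF1A and chr1:128359656-128359955 on the minus strand for MCM6.
CLSPN: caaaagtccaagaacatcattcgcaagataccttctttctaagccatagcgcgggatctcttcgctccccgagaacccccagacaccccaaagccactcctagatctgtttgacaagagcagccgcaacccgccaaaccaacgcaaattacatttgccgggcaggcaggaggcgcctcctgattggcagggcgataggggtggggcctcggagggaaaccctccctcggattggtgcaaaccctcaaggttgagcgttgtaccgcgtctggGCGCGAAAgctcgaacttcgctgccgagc
CHAF1A: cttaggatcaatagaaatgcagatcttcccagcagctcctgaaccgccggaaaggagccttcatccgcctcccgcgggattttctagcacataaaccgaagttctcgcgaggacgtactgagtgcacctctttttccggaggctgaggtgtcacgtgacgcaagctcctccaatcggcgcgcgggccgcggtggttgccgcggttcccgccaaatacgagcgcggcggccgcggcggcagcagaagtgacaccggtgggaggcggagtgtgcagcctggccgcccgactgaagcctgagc
MCM6: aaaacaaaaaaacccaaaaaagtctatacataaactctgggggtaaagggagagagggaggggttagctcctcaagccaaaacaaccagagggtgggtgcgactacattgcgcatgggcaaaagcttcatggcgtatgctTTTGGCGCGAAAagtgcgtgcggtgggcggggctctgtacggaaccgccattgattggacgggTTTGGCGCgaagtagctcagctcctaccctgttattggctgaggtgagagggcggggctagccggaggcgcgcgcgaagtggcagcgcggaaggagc

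The CLSPN window holds 1 E2F word, the CHAF1A window 0 and the MCM6 window 3, of which 2 overlap each other in the first run of capitals. Only the words given were searched, so a window without them can still hold another form of an E2F site. The table held 32 windows for 30 of the 38 replication genes, since MCM7 and POLD2 each have 2. An E2F word was found in 13 of the 32 windows, or 40.6%, against 2.26% of all 32851 windows. By gene it was found for 10 of 19 genes without the multiple of 2 and for 3 of 11 genes with it. The letters CCAAT, the box bound by NF-Y, were found on either strand in 22 of the 32 windows, or 68.8%, against 37.4% of all windows, and CCAAT lies within none of the E2F words. The median number of CpG dinucleotides was 24 per window for the replication genes and 7 for all windows. Each E2F word holds a CG, and the windows were not matched on CpG content for the shares. The words and boxes are matches of letters in a fixed window and no measure of binding or methylation.

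The order of libraries is given for the main scaling and is not firm where levels lie close. Of the 26 genes without the multiple of 2, 18 had the same highest library and 9 the same lowest library under all 3 scalings, and MCM3, MCM7, ORC1, ORC6, GINS2 and CHAF1A kept both.

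The origin licensing genes had a summed level of 119 in Control, 114 in BMN, 145 in PAZA, 122 at low dose and 117 at high dose. The high-dose sum was 0.985 times Control here and 1.16 and 1.18 times Control under the other scalings. ORC1, the ATPase of the origin recognition complex, was the weakest of the 38 genes at 4.52 in Control, 5.20 in BMN, 5.36 in PAZA, 6.52 at low dose and 6.56 at high dose. Control was lowest and the combination libraries were highest, with log2 ratios to Control of 0.45 at both doses, under 1.5-fold. Under the other scalings the high-dose ratio of ORC1 was 0.66 and 0.74, past it, and the low-dose ratio 0.52 and 0.58. ORC6, a small subunit of the complex, was at 84.3 in Control, 77.1 in BMN, 107 in PAZA, 86.1 at low dose and 78.8 at high dose, so PAZA alone stood above the rest. CDC6, which helps to load the helicase, ranged from 9.81 at high dose to 11.9 in BMN. CDT1, its partner in loading, ranged from 18.3 at low dose to 21.7 at high dose.

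The 6 subunits of the helicase ring had a summed level of 548 in Control, 552 in BMN, 500.2 in PAZA, 458 at low dose and 405 at high dose. The sum at high dose was 0.739 times Control, and 0.873 and 0.888 times Control under the other scalings, so the difference was smaller there. MCM7 had the largest part of it among the 6 subunits. MCM7, on chromosome 5 from 138164583 to 138172422, was at 162 in Control, 137 in BMN, 138 in PAZA, 123 at low dose and 91.3 at high dose. High dose was lowest, with a log2 ratio to Control of −0.82, past 1.5-fold, and of −0.58 and −0.56 under the other scalings, just under it.

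MCM4, on chromosome 16 from 15623897 to 15637400, was at 101 in Control, 119 in BMN, 85.3 in PAZA, 72.2 at low dose and 70.3 at high dose. Both combination libraries were below PAZA, and the log2 ratio to Control was −0.48 at low and −0.52 at high dose, under 1.5-fold. Against BMN the log2 ratio of MCM4 was −0.72 at low dose and −0.75 at high dose, both past 1.5-fold. Under the other scalings these ratios were −0.52 and −0.54 at low dose and −0.40 and −0.41 at high dose, all under it. The other subunits differed less. MCM3 was at 42.3 in Control and 48.8 in BMN and at 35.0 to 37.9 in the libraries with PAZA. MCM6 had its extremes at 118 in Control and 95.1 at high dose and MCM5 at 111 in PAZA and 88.6 at high dose, but high dose was not the lowest library for either under the other scalings. MCM2 was at 20.02 in Control and 20.2 to 23.4 in the others.

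Of the helicase activation genes, GINS2 differed most. GINS2, a subunit of the 4-part GINS complex that joins CDC45 to the ring, lies on chromosome 8 from 120578633 to 120589304 on the minus strand. Its level was 8.42 in Control, 23.0 in BMN, 26.03 in PAZA, 11.7 at low dose and 11.9 at high dose. Each single agent was well above Control, and both combinations lay between. The log2 ratio of GINS2 to Control was 1.52 in PAZA, 1.35 in BMN, 0.43 at low dose and 0.46 at high dose. The high-dose ratio was 0.68 and 0.74 under the other scalings, past 1.5-fold. At low dose it was −1.09 against PAZA and −0.92 against BMN. The 3 other GINS genes differed far less, though GINS1 and GINS4 were also highest in PAZA under all 3 scalings. GINS1 was at 17.4 in Control, 18.6 in BMN, 23.0 in PAZA, 19.5 at low dose and 16.5 at high dose, and GINS4 at 55.4, 60.3, 66.2, 57.1 and 54.4 in the same order. GINS3 ranged from 9.07 at high dose to 11.6 at low dose. CDC45 was at 47.2 in Control, 49.2 in BMN and 44.5 in PAZA, and at 38.8 and 37.3 at low and high dose. MCM10, which helps to activate the loaded helicase, ranged from 11.1 at high dose to 13.8 in BMN, and BMN was its lowest library under the other scalings.

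Among the polymerase genes without the multiple of 2, POLE was lowest at high dose. POLE, the catalytic subunit of the leading-strand polymerase epsilon on chromosome 5 from 110286306 to 110337474, was at 27.7 in Control, 22.9 in BMN, 17.8 in PAZA, 20.2 at low dose and 16.04 at high dose. Control was highest, and the log2 ratio to it was −0.75 at high dose and −0.61 in PAZA, past 1.5-fold, and −0.44 at low dose. Under the other scalings the ratio was −0.53 and −0.51 at high dose and −0.51 and −0.54 in PAZA, both under 1.5-fold. POLE2, the second subunit of polymerase epsilon, did not follow it, with 24.2 in Control, 28.1 in BMN, 26.1 in PAZA, 19.2 at low dose and 21.3 at high dose. POLD2, an accessory subunit of polymerase delta, was at 30.7 in Control, 28.4 at low dose and 22.2 to 23.5 in the rest. PRIM2, the large primase subunit, ranged from 34.0 at high dose to 41.6 in PAZA.

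For the polymerase genes with the multiple of 2, the low-dose values given here come from the table with high-dose BMN/PAZA, and those of the table with BMN differ. PRIM1, the catalytic primase subunit, was at 36.6 in Control, 49.2 in PAZA, 41.2 at low dose, 32.7 at high dose and 92.5 in BMN. Its low-dose level was 52.0 with the value of the table with BMN. POLD1, the catalytic subunit of polymerase delta, was at 11.97 in Control, 14.1 in PAZA, 12.7 at low dose, 8.06 at high dose and 28.5 in BMN. POLD1 was lowest at high dose, where low dose was higher by 0.60 on the log2 scale and by 0.43 with the low-dose value of the table with BMN. POLA1, the catalytic subunit of polymerase alpha, was at 61.3 to 73.0 in the 4 libraries and at 138 in BMN, and POLA2 was at 25.8 to 28.3 in the 4 and at 63.6 in BMN. With the low-dose values of the table with BMN, POLA1 was at 125 and POLA2 at 39.2 at low dose, so both also stood higher in one deposited version of that library.

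PCNA had the highest level of the 38 genes. The sliding clamp was at 479.8 in Control, 507 in PAZA, 424 at low dose, 364 at high dose and 951 in BMN. Outside BMN the order was PAZA, Control, low dose and high dose, and the log2 ratio of high dose to Control was −0.40, under 1.5-fold. With the PAZA value of the table with low-dose BMN/PAZA, 469.5, PCNA was lower in PAZA than in Control. The annotation names 2 pseudogenes of PCNA, so some of its reads may be shared. Of the 38 genes, 12 overlap another annotated gene, 2 of them on the same strand. GINS2, CHAF1A, MCM7 and POLE are among the 12, and the part of shared reads was not tested. With the low-dose value of the table with BMN, PCNA was at 617 at low dose, above Control. The clamp loader subunits are given next. RFC1, the large subunit and the only one without the multiple, was at 50.5 in Control, 50.8 in BMN, 36.1 in PAZA, 50.4 at low dose and 41.9 at high dose. RFC3 was at 44.0 to 59.3 and RFC4 at 42.7 to 52.4 in the 4 libraries other than BMN. RFC2 was at 26.9 in Control and 29.7 to 33.5 in the 3 libraries with PAZA, and RFC5 at 13.2 in Control and 15.2 to 19.3 in those 3. With the low-dose values of the table with BMN, RFC2 was at 40.2, RFC3 at 54.5, RFC4 at 56.4 and RFC5 at 24.3 at low dose. The BMN values of RFC2, RFC3, RFC4 and RFC5 were 67.9, 132, 98.5 and 34.1.

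The 3 subunits of RPA, the single-strand binding complex, did not share an order outside BMN. RPA1, the large subunit, was at 36.5 in Control, 34.7 in BMN, 39.9 in PAZA, 36.05 at low dose and 31.9 at high dose. RPA2 was at 12.2 in Control and 13.1 to 13.6 in the libraries with PAZA, and at 29.4 in BMN. With the low-dose value of the table with BMN, 16.9, the low-dose log2 ratio of RPA2 to Control was 0.44 in place of 0.10. RPA3, the small subunit, was at 36.2 in Control, 50.8 in PAZA, 55.7 at low dose, 49.0 at high dose and 125 in BMN. Control was lowest for RPA3, and the low-dose log2 ratio to it was 0.61, past 1.5-fold. With the low-dose value of the table with BMN, 46.4, the ratio of RPA3 was 0.35, under 1.5-fold. Under the other scalings its high-dose ratio to Control, 0.43 here, was 0.66 and 0.70.

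TYMS, thymidylate synthase, which makes the dTMP that replication consumes, had the widest range outside BMN among the 12 genes with the multiple, with the highest of the 4 libraries at 2.58 times the lowest. TYMS was at 13.3 in Control, 24.2 in PAZA, 34.4 at low dose, 16.4 at high dose and 77.3 in BMN. The log2 ratio to Control was 0.82 in PAZA and 1.31 at low dose, both past 1.5-fold, and 0.28 at high dose. Low dose was higher than high dose by 1.02 on the log2 scale. The low-dose value depends on the table: taken from the table with BMN it was 23.2, with a log2 ratio of 0.75 to Control, still past 1.5-fold, and of 0.47 to high dose, under it. With the PAZA value of the table with low-dose BMN/PAZA, 22.4, the low-dose log2 ratio of TYMS to PAZA was 0.60, past 1.5-fold, in place of 0.49. The annotation names 1 pseudogene of TYMS.

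In PAZA, 2 of the 38 replication genes were lower (POLE and CLSPN) and 2 higher (GINS2 and TYMS), where 15.6% of all genes were lower and 10.6% higher. Under both other scalings POLE was under 1.5-fold and RFC5 was higher, with a log2 ratio of 0.59. RFC5 carries the multiple, and with the PAZA value of the table with low-dose BMN/PAZA its ratio under these scalings was 0.48, under 1.5-fold. The median log2 ratio was 0.09 over the 38 genes and 0.05 over the 26 without the multiple, against −0.10 over all genes. In BMN, 0 were lower and 13 higher, where 6.97% of all genes were lower and 13.0% higher. Of these 13 genes 12 carry the multiple of 2, and the remaining one was GINS2. The median was 0.19 over the 38 genes and 0.08 over the 26, against 0.09 over all genes, which keep the genes with the multiple.

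At low dose, 2 genes were lower than Control (CHAF1A and CLSPN) and 2 higher (RPA3 and TYMS), against 14.2% and 11.2% of all genes. With the low-dose values of the table with BMN, RPA3 was under 1.5-fold, and RFC5 and POLA1 were higher than Control, with log2 ratios of 0.83 and 0.86. At high dose, 3 were lower (MCM7, POLE and CLSPN) and 0 higher, against 20.2% and 8.44%. Under both other scalings only CLSPN of these was lower, and ORC1, GINS2, RFC5 and RPA3 were higher. The all-gene shares of called genes were computed for the main setting only, so calls under other scalings or tables have no share beside them. The median over the 38 genes was −0.0066 at low dose and −0.19 at high dose, near the all-gene medians of −0.08 and −0.22. The high-dose shift of the replication genes was therefore of the size of the shift of all genes. Under scalings that set the all-gene median near 0, the high-dose median of the 38 genes was 0.04 and 0.07. The 4 comparisons share the Control library, so their counts are not independent.

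**Figure D4:**
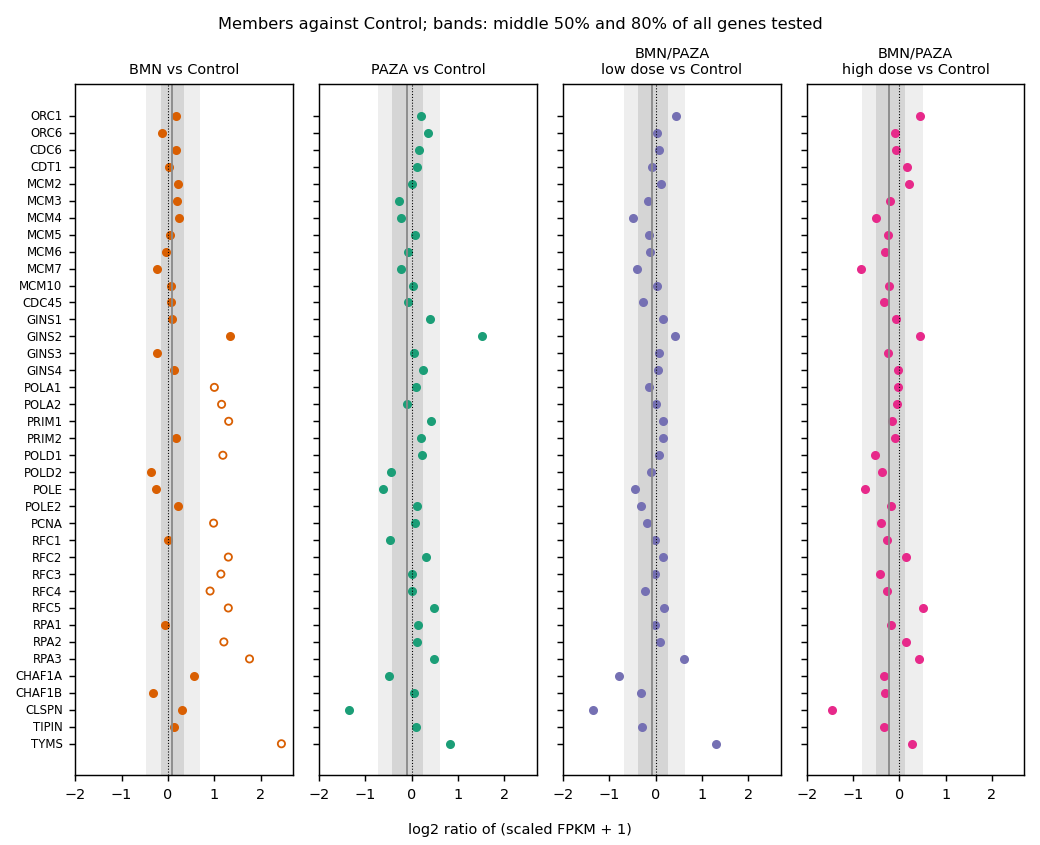
Log2 ratio of (scaled FPKM + 1) to Control (horizontal axis) for the 38 replication genes (rows) in the 4 treated libraries (panels), 1 point per gene; the bands are the middle 50% and 80% of all genes tested, and open circles are the 12 BMN values at 2 times low dose. CLSPN lies at −1.36, −1.34 and −1.46 in the 3 panels with PAZA, left of the bands, and GINS2 lies right of them at 1.35 in BMN and 1.52 in PAZA.

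The comparisons of the combination with its parts carry the study's question of what the carrier adds to BMN. At low dose 16 of the 38 genes were lower than in BMN and 0 higher, where 20.3% of all genes were lower and 9.37% higher. The multiple of 2 fixes 12 of the 16, whose log2 ratio lay between −1.17 and −1.11. With the low-dose values of the table with BMN the 12 ratios ran from −1.70 for TYMS to −0.14 for POLA1, and POLA1 and RFC5, at −0.47, were under 1.5-fold, which left 14 lower genes. Among the 26 other genes 4 were lower, MCM4, GINS2, CHAF1A and CLSPN. The median was −0.35 over the 38 genes and −0.10 over the 26, against −0.18 over all genes. The 12 were set aside on values of this comparison, and all genes keep theirs, so no result is drawn from these medians. At high dose 16 were again lower than in BMN and 0 higher, against 26.4% and 6.13% of all genes, and 4 of the 26, the same 4 genes, were among them. Under both other scalings MCM4 was under 1.5-fold at each dose, and GINS2 and CHAF1A were under it at high dose, so that of the 26 genes CLSPN alone was lower than BMN at high dose and ORC1 was higher. Against PAZA, low dose had 1 lower gene, GINS2, and 0 higher, against 8.13% and 9.12% of all genes. The median was −0.14 over the 38 genes and −0.16 over the 26, against 0.03 over all genes. Of the 38 genes, 29 lay below the all-gene median. Between the doses, 0 genes were lower at low dose and 2 higher, POLD1 and TYMS, against 6.38% and 12.5% of all genes. Both carry the multiple, and both fall under 1.5-fold with the low-dose values of the table with BMN, where PCNA, POLA1 and PRIM1 were higher instead. POLD1 was also under 1.5-fold with the low-dose value of the table with PAZA and under both other scalings. CHAF1A was then lower at low dose, with log2 ratios of −0.60 and −0.66 under those scalings. These comparisons share the BMN, low-dose and high-dose libraries with each other.

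A list of 28 other replication genes was set beside these. The multiple of 2 was found for 5 of them, POLD3, POLD4, POLE4, FEN1 and LIG1. Of the 23 others, 2 were lower than Control and 3 higher in PAZA, 0 and 4 in BMN, 3 and 4 at low dose, and 3 and 4 at high dose. The 26 replication genes above had 2 lower and 1 higher, 0 and 1, 2 and 0, and 3 and 0 in the same libraries, and the all-gene shares are those given for each comparison with Control. The median log2 ratio of the 23 genes to Control was 0.10 in PAZA, 0.20 in BMN, −0.01 at low dose and −0.08 at high dose. CHTF18, part of the clamp loader for sister chromatid cohesion, was at 3.70 in Control, 14.3 in BMN, 8.93 in PAZA, 11.96 at low dose and 12.8 at high dose, so Control was lowest. TIMELESS, the partner of TIPIN in the fork protection complex, was at 22.7 in Control, 17.1 in BMN, 9.67 in PAZA, 13.8 at low dose and 13.4 at high dose. It was lowest in the libraries with PAZA, as CLSPN was, while TIPIN itself was not. TICRR, which helps to activate origins, was at 8.39 in Control, 8.95 in BMN, 3.30 in PAZA, 6.48 at low dose and 3.39 at high dose. WDHD1, which links polymerase alpha to the helicase, was at 12.6 at low dose and 22.5 to 25.1 in the other libraries.

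Other cell cycle genes were measured beside these. The summed level of 16 proliferation and mitosis genes was 1242 in Control, 1546 in BMN, 1319 in PAZA, 1154 at low dose and 1093 at high dose, with no gene at the multiple of 2. The summed level of the 26 replication genes was 1308, 1353, 1284, 1136 and 1037 in the same order. Under this scaling both sums were highest in BMN and lowest at high dose. Under the other scalings the proliferation sum at high dose was 1.04 and 1.06 times Control, above low dose at 0.986 and 0.991. Under the other scalings the sum of the 26 genes was highest in PAZA, at 1.06 and 1.04 times Control, and the high-dose sum was above the low-dose sum, at 0.937 and 0.953 times Control against 0.922 and 0.927. The median log2 ratio to Control of 12 genes of the G1/S transition was 0.28 in PAZA, 0.51 in BMN, −0.02 at low dose and 0.05 at high dose. The all-gene medians were −0.10, 0.09, −0.08 and −0.22 in the same order. That list mixes genes that drive the transition with genes that restrain it, so its median is no measure of entry into S phase. The part of the share of cycling cells in the levels of the replication genes was not tested.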

How the data were processed

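The authors sequenced RNA from 5 libraries, 1 per group, and per the labels used HISAT2, StringTie and GRCm38, with versions not given in the sources used here. They deposited 5 tables of 2 groups each without a unit name, and the deposited values were read as FPKM. Values of Control and PAZA, of BMN and high-dose BMN/PAZA, and of low-dose BMN/PAZA came from 3 of the tables. A repeated symbol was represented by its row of highest mean. Each library was scaled to sum to 1000000 over 13979 shared symbols, and log2 ratios used a pseudocount of 1. Genes with a mean of at least 1 over the 5 libraries were kept. Calls were made at 1.5-fold, with no test. The libraries have unknown depth, so no counting error was computed. A BMN value within 0.2% of 2 times the low-dose value, after the median ratio between tables, was marked.

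The 38 replication genes and all lists (other replication, G1/S, proliferation, leukocyte, macrophage, neutrophil, T and NK cell, fibroblast, endothelial, skeletal muscle, epidermal, adipocyte and lung epithelial genes) were chosen with earlier results of these data known. By rule, all 38 genes were named. Of other replication genes, those with the multiple were named, and levels were described only for some of the 2 highest and 2 lowest of a comparison. The steps were tested on simulated data. Positions come from the GRCm38 annotation and promoter windows from RefSeq. Alternatives were other scalings, a pseudocount of 0.1, no filter, a fold limit of 2, other tables for the low dose, summed repeated rows, leaving out marked genes and, chosen after seeing the data, another table for PAZA. Python 3.11.15, numpy 2.4.6, pandas 2.3.3 and matplotlib 3.10.9 were used.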

Additional observations from a re-analysis of the deposited data

How the results depend on the processing

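Each group has 1 library, so a median over the 38 replication genes was called moved where it shifted by 0.1 or more on the log2 scale. A pseudocount of 0.1, no filter on low values and the sum of repeated rows kept all 8 medians within 0.1 and all 16 counts within 1.5 times, the tolerance used for counts. With the pseudocount of 0.1, 14 genes were higher in BMN than in Control, in place of 13. Under median-of-ratios scaling the median log2 ratio turned to 0.043 for high dose against Control and to −0.038 for low against high dose, and moved to 0.19 for PAZA and 0.078 for BMN against Control, −0.15 for low dose against BMN and −0.077 for high dose against BMN. The median of all genes itself shifted by 0.217 for high dose against Control and by 0.32 for high dose against BMN. Leaving the 100 highest genes out of the scaling turned the same comparisons, to 0.067 and −0.054, and moved low and high dose against BMN to −0.17 and −0.079. Under each of these scalings 1 gene was lower and 3 higher in PAZA than in Control, 1 lower and 4 higher at high dose than in Control, 12 lower and 1 higher at high dose than in BMN, and 1 lower and 1 higher at low than at high dose. The share of all genes called was not computed under any alternative setting, so the counts here and below have no reference.

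Without the 12 genes at the multiple of 2, the median was 0.084 for BMN against Control, −0.098 for low dose against BMN and −0.27 for high dose against BMN. The genes higher than Control were then 1 in PAZA, 1 in BMN and 0 at low dose, 4 were lower than BMN at each dose, and 0 were higher at low than at high dose. At a fold limit of 2, 1 gene was lower and 1 higher than Control in PAZA and at low dose, 1 lower at high dose, and 1 higher at low than at high dose. With the low dose taken from the table with BMN, 1 gene was higher than in PAZA, and with that from the table with PAZA, 1 was higher at low than at high dose. With PAZA taken from the table with low dose, a setting chosen after seeing the data, 1 gene was higher at low dose than in PAZA. No paired analysis was possible because each group has 1 library and no test was run. The cause of these moves was not tested.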
